A study of Rattus norvegicus with 20 samples.

Results

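The genes described here are the members of the Wnt, BMP and activin, Hedgehog, Notch, ectodysplasin, EGF-family and PDGF signalling families that could be named in epithelial cells cultured from 5 rat tissues. They were chosen by the start of the gene symbol (Wnt, Fzd, Dkk, Sfrp, Rspo, Lgr, Lef1, Tcf7, Axin, Bmp, Tgfb, Inhb, Fst, Grem, Smad, Fgf, Fgfr, Notch, Jag, Dll, Ptch, Gli, Shh, Eda, Egf, Areg, Ereg, Pdgf and Igfbp). The count files list 32494 Ensembl identifiers, and 2311 of them could be paired with a symbol through 2 gene tables of the study. The larger was held here only in part, as its first 1997 rows in alphabetical order, which end among symbols that begin with Fa. Genes later in the alphabet could be paired only through the other table, whose 433 rows are the genes that differed from whisker cells in common among the tissues. Of the paired genes, 27 had a symbol that starts in one of the listed ways: Wnt3, Wnt4, Dkk3, Lgr4, Bmp1, Bmp2, Bmp3, Bmp4, Bmp6, Bmp8a, Bmp8b, Bmpr1b, Tgfbi, Inhba, Fstl1, Dll1, Gli1, Gli2, Eda, Eda2r, Edar, Edaradd, Egfl7, Egfl8, Areg, Ereg and Pdgfc. The other 15 of the 29 prefixes have no member among the rows held, which does not show that the full table lacks them, and FGF ligands and receptors, Frizzled and Notch receptors, Jagged ligands, Patched and Shh are not analysed here. Notch is represented by the ligand Dll1 alone and Hedgehog by the transcription factors Gli1 and Gli2. The pairing tables hold genes that the study called against whisker cells, so these 27 genes are not a random draw from their families. Samples of all 5 tissues, before and after transplantation, entered that choice. The tests below reuse the values that chose the genes, so their p-values and counts are not independent of the choice.

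Cells came from EGFP-expressing Sprague-Dawley rats, in which a ubiquitous promoter drives the reporter, and were grown on irradiated mouse 3T3-J2 feeder cells. Donors (PN, postnatal day) were at PN201 for the bladder (dome), PN200 for trachea and vagina, PN137 for the thymus and PN57 for the whisker follicle. Each tissue was sampled in a 1st round, before transplantation, and in a 2nd round, once the cells had been recovered from the transplants and grown again. For transplantation, cells were injected into skin of newborn mice, and this skin was grafted onto athymic mice and harvested several months later. The 10 groups held 2 samples each, all sorted on EGFP before RNA extraction. The whisker cells were clone 7 before and subclone 14 after transplantation, and the thymic cells, labelled both as bulk and as clone 9 before and as bulk 907 after, came from frozen stock, so a difference between rounds there cannot be told apart from one between lines. The sources used here do not say that the 2 samples of a group came from separate animals or transplants, and the p-values may measure the spread between parallel cultures only.

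These pathways carry signals between epithelium and mesenchyme. Wnt ligands stabilise beta-catenin, which acts with TCF/LEF factors; BMPs and activins signal through paired serine/threonine kinase receptors and SMAD proteins. Hedgehog signalling ends in the GLI factors, and Gli1 is itself a target gene of the pathway. Ectodysplasin signals through its receptor Edar and the adaptor Edaradd to NF-kB, and loss of any of the 3 impairs hair and tooth development. In skin, Wnt, ectodysplasin and Hedgehog signals promote the start and downgrowth of hair follicles, and BMP signals restrain follicle stem cells.

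Promoter sequence was available for 20 of the 27 members (RefSeq, build GRCr8, 250 bases before to 50 bases from the start; 2 of the 20, Bmp8b and Egfl7, have several windows). Gli1, Edaradd, Ereg, Dkk3, Bmp2, Bmp1 and Bmpr1b are not shown. Core motifs of the factors at the end of 3 of the pathways were searched on both strands: CTTTGAT for TCF/LEF, GACCACCCA for GLI and GTGGGAA for RBPJ, the DNA-binding partner of Notch. TCF/LEF letters were in the window of 1 member (Pdgfc) and in 3.63% of all 33469 windows of 300 bases. RBPJ letters were in those of 3 members (Areg, Dll1 and Eda) and in 6.29% of all windows. GLI letters were in the window of 0 members and in 0.385% of all. The windows with a match, and that of Bmp6, which rose most of the BMP ligands and holds none of the 3 motifs, are printed 5′ to 3′ on the strand of the gene, with the match in capitals (TTCCCAC is GTGGGAA on the other strand).
Dll1, chr1:64993225-64993524, minus strand: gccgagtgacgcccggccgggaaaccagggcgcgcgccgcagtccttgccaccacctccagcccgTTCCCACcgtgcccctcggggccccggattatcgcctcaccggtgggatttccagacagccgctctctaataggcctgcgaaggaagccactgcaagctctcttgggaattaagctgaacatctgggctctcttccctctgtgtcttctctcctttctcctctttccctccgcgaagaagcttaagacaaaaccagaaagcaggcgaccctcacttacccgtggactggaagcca
Eda, chrX:69118570-69118869, plus strand: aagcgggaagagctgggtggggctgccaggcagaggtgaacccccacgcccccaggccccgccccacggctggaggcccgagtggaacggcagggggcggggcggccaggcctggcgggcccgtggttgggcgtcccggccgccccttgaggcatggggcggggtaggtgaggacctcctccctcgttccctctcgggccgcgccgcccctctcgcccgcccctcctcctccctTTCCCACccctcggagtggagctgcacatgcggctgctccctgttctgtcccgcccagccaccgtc
Areg, chr14:17265592-17265891, minus strand: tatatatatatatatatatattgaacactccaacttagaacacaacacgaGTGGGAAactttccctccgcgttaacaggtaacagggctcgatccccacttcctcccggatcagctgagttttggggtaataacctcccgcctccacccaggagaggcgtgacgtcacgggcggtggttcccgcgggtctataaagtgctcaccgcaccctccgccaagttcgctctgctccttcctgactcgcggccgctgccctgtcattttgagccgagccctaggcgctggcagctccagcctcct
Pdgfc, chr2:168614918-168615217, plus strand: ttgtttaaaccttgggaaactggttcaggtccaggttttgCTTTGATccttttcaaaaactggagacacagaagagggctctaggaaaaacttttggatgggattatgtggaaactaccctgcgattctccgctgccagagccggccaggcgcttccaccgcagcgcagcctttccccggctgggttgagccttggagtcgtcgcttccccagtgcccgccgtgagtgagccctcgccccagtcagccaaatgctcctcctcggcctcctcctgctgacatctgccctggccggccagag
Bmp6, chr17:26675212-26675511, minus strand: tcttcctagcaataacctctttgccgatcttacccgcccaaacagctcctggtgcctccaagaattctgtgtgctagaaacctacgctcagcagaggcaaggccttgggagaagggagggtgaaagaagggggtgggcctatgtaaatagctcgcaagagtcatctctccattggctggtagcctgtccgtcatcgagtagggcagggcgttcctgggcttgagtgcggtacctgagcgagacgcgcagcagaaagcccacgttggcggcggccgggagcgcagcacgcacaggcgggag
A match describes letters in the window and was not tested as a binding site. The 3 members with RBPJ letters were not called in the same tissues. Dll1 was called higher in bladder cells alone among the 5 tissues, Eda in bladder and whisker cells and Areg in whisker cells.

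The samples held 20723083 to 29824855 gene counts, so that 3 counts, taken as the lowest level shown, equal 0.101 to 0.145 CPM (counts scaled to the depth of the sample). All 27 members reached 1 CPM in at least 1 sample and were tested among 13302 genes. The 2 samples of the thymus and of the bladder before transplantation differed more from each other (mean chi-square over genes 42.9 and 34.5) than those of the other 8 groups (2.48 to 9.81). Summed over 7 basal epithelial markers (such as Cdh1, Col17a1 and Epcam), the level was 4826 to 16463 CPM in every sample. In bladder this sum went from 4826 and 5142 CPM to 10673 and 10219 CPM and 5 of the 7 were called higher (3.42 for Dsg3, 2.81 for Dsc3 and 2.80 for Col17a1, log2 changes), against 1 in trachea, 2 in vagina, 1 in thymus and 0 in whisker. Cdh1 and Epcam went the other way in bladder (log2 change -0.38 and -0.55), by less than 2-fold. The 5 markers called higher moved with the 11 signalling genes that were higher in bladder, and their part in that count was not tested. Of 3 bladder markers (Foxa1, Upk1b and Upk3bl) the sum was 199 to 311 CPM in bladder samples and 232 and 264 CPM in tracheal samples before transplantation. Over 6 immune markers it was 21.1 to 157 CPM, with 1 called higher and 3 lower in bladder, 1 and 3 in trachea, 1 and 2 in vagina, 2 and 1 in thymus and 0 in whisker. Aire, the only thymic marker that could be named, was at 0.170 and 0.165 CPM in recovered thymic cells and at 3.44 and 3.10 CPM in recovered vaginal cells, so it does not mark the thymic samples here.

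Of the 27 signalling genes, 22 passed the test after transplantation in at least 1 tissue (limma voom, Benjamini-Hochberg adjusted p under 0.05 and at least 2-fold) and 5 did so in none: Bmp1, Eda2r, Egfl8, Gli2 and Wnt4. The share of all genes called in at least 1 of the 5 tissues was not computed. The count of 22 is therefore not read as a result about signalling genes. In bladder cells 11 were higher and 3 lower, against 10.1% and 11% of all genes tested. In tracheal cells 3 were higher and 7 lower (4.39% and 8.04% of all genes), in vaginal cells 2 and 7 (4.25% and 7.53%), in thymic cells 8 and 5 (8.49% and 6.89%) and in whisker cells 3 and 6 (2.15% and 3.83%). The genes that could be paired with a symbol were called more often than all genes, and over the other 2284 of them the shares were 20.6% higher and 22.4% lower in bladder, 10.1% and 17.4% in trachea, 8.98% and 17.7% in vagina, 19.2% and 14.5% in thymus and 5.60% and 9.54% in whisker. Against that closer background the share of members called higher was greater in bladder (40.7%) and thymus (29.6%). For lower genes it was greater in trachea and vagina (25.9% in each) and in whisker (22.2%). The share was near or below that background for higher genes in trachea (11.1%) and vagina (7.41%). For lower genes it was so in bladder (11.1%) and thymus (18.5%). In whisker the share of higher genes, 11.1%, was 3 members. The members and the other paired genes were not matched for the table through which they were paired. The part of this in the shares was not tested. The same shares are the background for the counts of each family, pathway list and marker list given here, since all their genes are paired genes. Those lists are short, and their counts are not read as results about a pathway. The split in thymus rests on single samples: without sample 1 before transplantation 5 members were higher and 6 lower, and without sample 2 before transplantation 11 were higher and 3 lower. The median log2 change of the members was 0.44 in bladder, 0.05 in trachea, -0.09 in vagina, 0.28 in thymus and 0.26 in whisker, beside -0.01 to 0.02 over all genes.

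**Figure D1:**
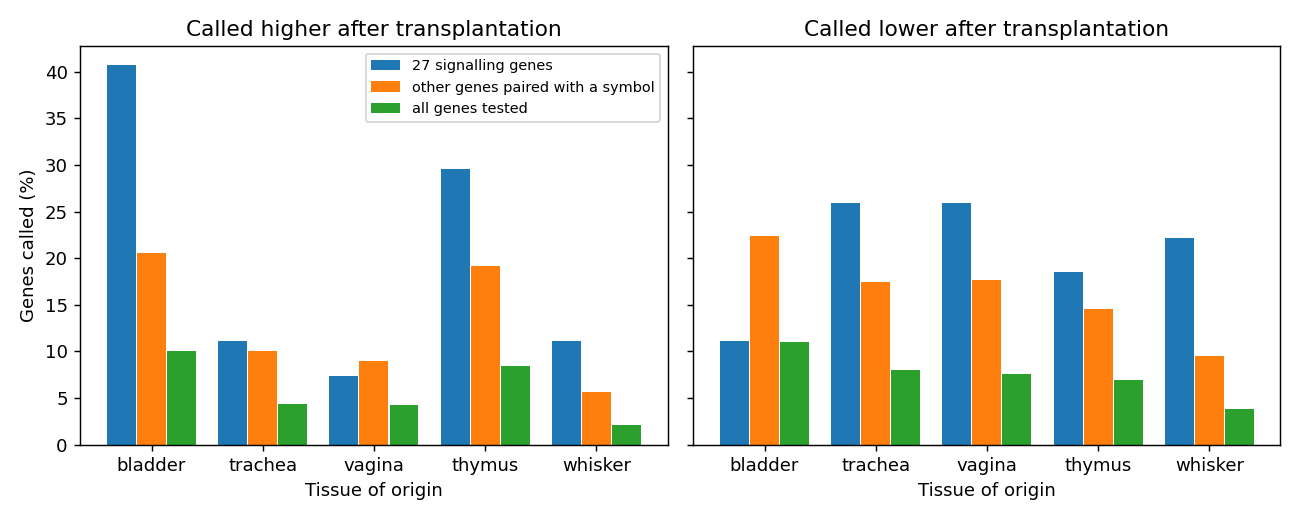
Percentage of genes (y axis) called higher (left) or lower (right) after transplantation in each tissue of origin (x axis), for the 27 signalling genes, the other 2284 genes paired with a symbol and all 13302 genes tested. The signalling genes were at 40.7% for higher genes in bladder, against 20.6% and 10.1%, and at 22.2% for lower genes in whisker, against 9.54% and 3.83%.

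**Figure D2:**
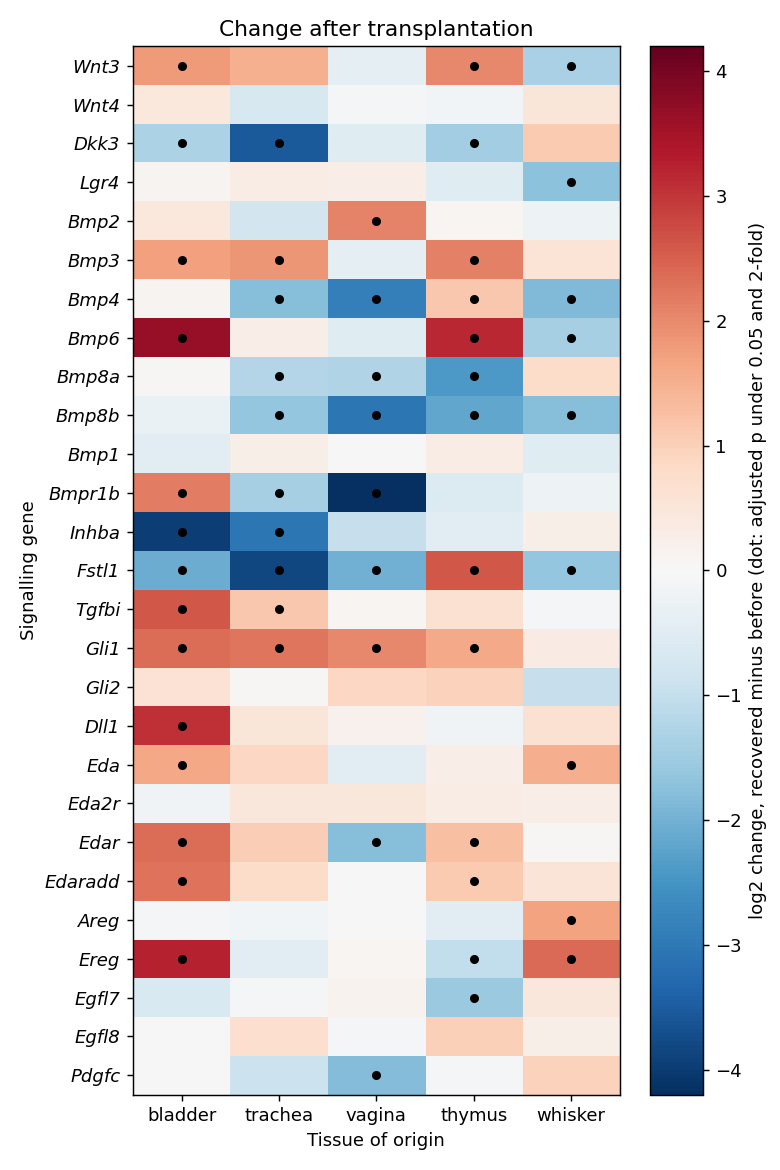
Log2 change after transplantation (colour, recovered minus before) of the 27 signalling genes (y axis) in cells of 5 tissues (x axis), where a dot marks an adjusted p under 0.05 and at least 2-fold. Gli1 is called higher in the 4 non-hair tissues, and Fstl1 is called in all 5, higher in thymus alone.

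Gli1, the Hedgehog-induced transcription factor, was the 1 member called higher in all 4 non-hair tissues. In bladder cells it was at 0.0747 and 0.172 CPM before and 0.714 and 0.603 CPM after. In tracheal cells it was at 0.538 and 0.161 CPM before and 1.22 and 1.79 CPM after, and in vaginal cells at 0.956 and 0.797 CPM before and 3.44 and 3.79 CPM after. Thymic cells had 0.198 and 0.249 CPM before and 0.764 and 0.660 CPM after. In each of these tissues both recovered samples lay above both earlier ones. The log2 change was 2.35 ± 0.57 (SE; adjusted p = 0.0021) in bladder, 2.25 ± 0.43 (adjusted p = 5.99e-04) in trachea, 2.02 ± 0.30 (adjusted p = 6.65e-05) in vagina and 1.58 ± 0.49 (adjusted p = 0.0148) in thymus. Before transplantation the bladder, thymus and 1 tracheal sample held only 2 to 6 reads each. Without sample 1 of the thymus before transplantation the thymic change was 1.41 (adjusted p = 0.0978), and without sample 1 of the recovered thymus 1.46 (adjusted p = 0.0592). A test of whether the change differed among the 4 tissues, added after the values were seen, did not pass for Gli1 (range of log2 changes 0.77, moderated F adjusted p = 0.755), which does not show that the changes were equal. Whisker cells had 10.2 and 11.3 CPM before and 12.9 and 14.2 CPM after, above every other sample.

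Gli2, the other GLI factor measured, acts upstream of Gli1. Its level in the non-hair tissues was between 7.97 and 11.4 CPM before and 10.7 and 19.7 CPM after transplantation, and its log2 changes of 0.60 in bladder, 0.88 in vagina and 0.96 in thymus stayed under the 2-fold threshold. In whisker cells Gli2 went from 48.2 and 49.9 to 24.2 and 25.5 CPM, a log2 change of -0.98 ± 0.095, also under the threshold. Of 6 other Hedgehog pathway genes (Boc, Dhh, Disp1, Disp2, Evc and Evc2), 1 was higher and 1 lower in bladder, 2 higher and 1 lower in thymus, 1 lower in whisker and 0 called in trachea or vagina.

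**Figure D3:**
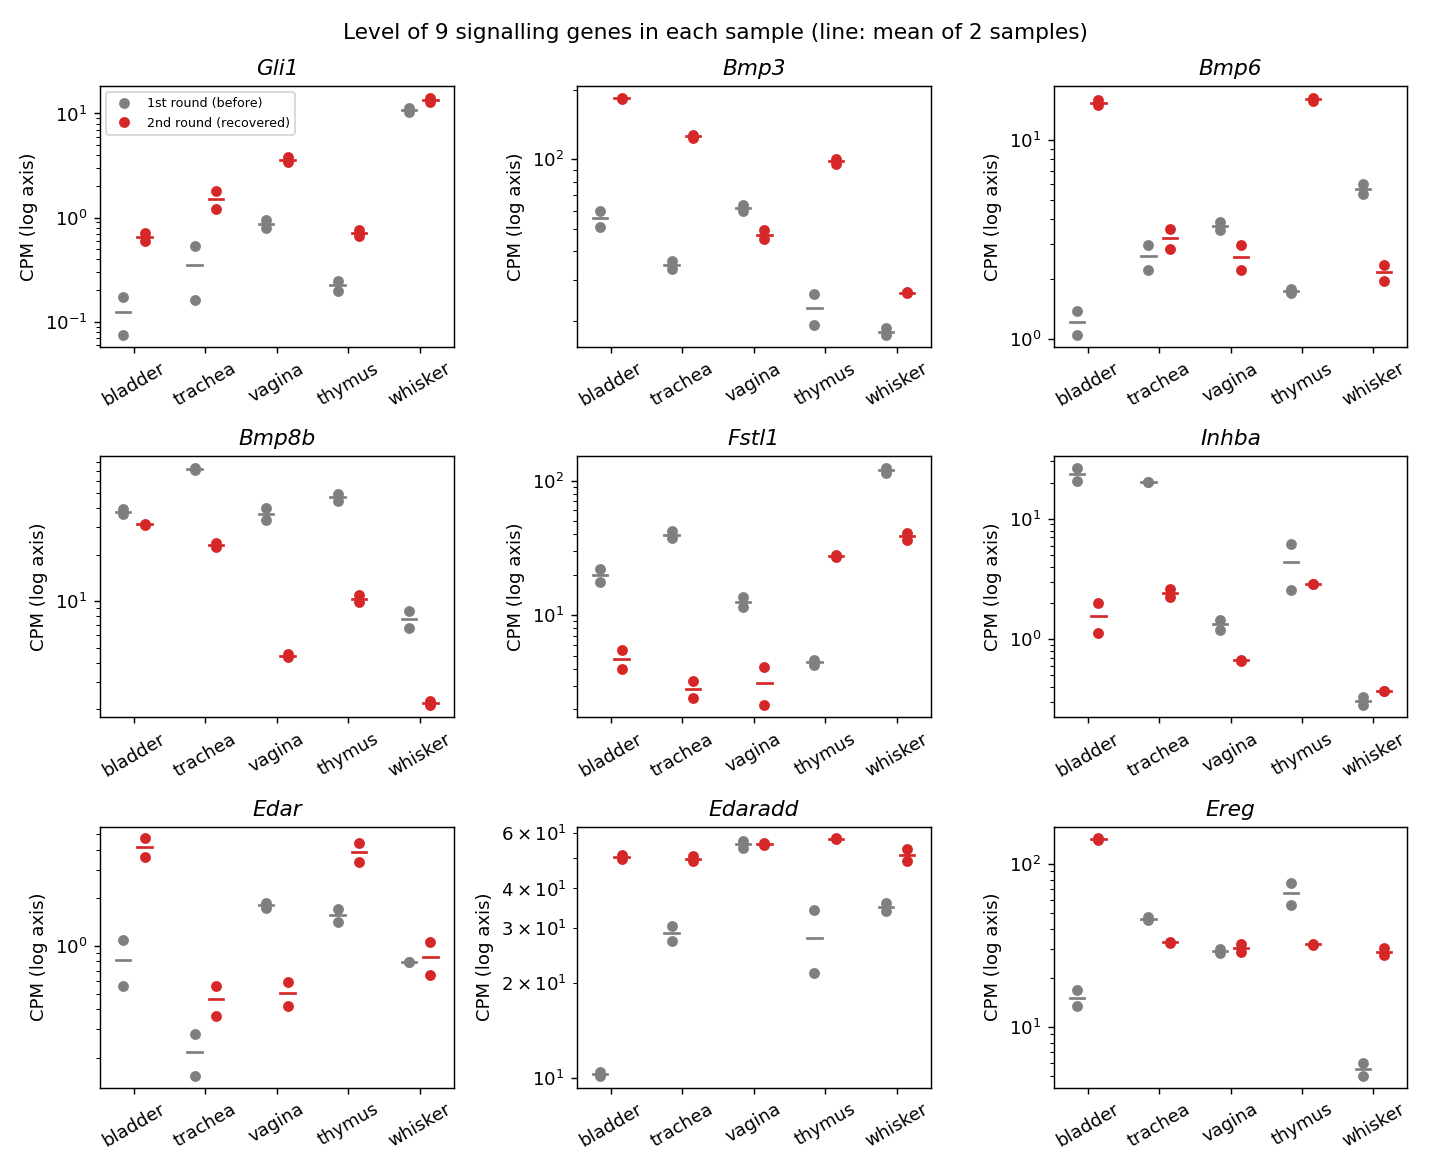
Level in CPM (y axis, log scale) of 9 signalling genes in each sample of 5 tissues of origin (x axis), before transplantation in grey and recovered in red, where points are samples and lines the mean of 2 samples. Recovered bladder and thymic cells stand above the others in Bmp6 (14.9 to 16.3 CPM), and recovered cells of all 5 tissues lie between 48.9 and 57.7 CPM for Edaradd.

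Among the 6 BMP ligands, Bmp3 rose in 3 tissues and Bmp8b fell in 4. Bmp3, an atypical ligand that antagonises other BMPs, was at 60.0 and 51.0 CPM before and 184 and 182 CPM after in bladder, a log2 change of 1.73 ± 0.099 (adjusted p = 4.71e-10). Tracheal cells had 33.5 and 36.2 CPM before and 124 and 127 CPM after, a change of 1.85 ± 0.10 (adjusted p = 1.53e-09). The thymic samples were at 19.3 and 26.2 CPM before and 95.3 and 100.3 CPM after, a change of 2.12 ± 0.11 (adjusted p = 3.38e-10). In these tissues the rounds did not overlap. Vaginal cells went the other way, with 63.5 and 59.9 CPM before and 45.0 and 49.2 CPM after, but by less than 2-fold, and whisker cells had 18.6 and 17.4 CPM before and 26.7 and 26.4 CPM after.

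Bmp6, a ligand of the BMP5/6/7 subgroup, was called higher in bladder and thymic cells only among the 5 tissues. It was at 1.05 and 1.38 CPM before and 15.9 and 14.9 CPM after in bladder and at 1.79 and 1.70 CPM before and 16.3 and 15.6 CPM after in thymus. The log2 changes were 3.67 ± 0.22 (adjusted p = 1.07e-09) and 3.18 ± 0.20 (adjusted p = 2.26e-09), and both recovered groups lay above every other sample of the series. Tracheal cells stayed at 2.23 and 2.98 before and 3.57 and 2.85 CPM after, and vaginal cells at 3.52 and 3.85 before and 2.22 and 2.96 CPM after. In whisker cells Bmp6 fell, from 5.99 and 5.34 to 2.35 and 1.97 CPM, by a log2 change of -1.40 ± 0.21 (adjusted p = 1.10e-04). The change differed among the 4 non-hair tissues (range 4.17 on the log2 scale, moderated F adjusted p = 7.24e-09).

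Bmp4, a ligand made in many epithelia and in the dermal papilla, fell in 3 tissues and rose in 1. Vaginal cells had 16.6 and 13.3 CPM before and 2.51 and 1.71 CPM after, a log2 change of -2.86 ± 0.21 (adjusted p = 2.40e-08). Whisker cells had 9.65 and 9.51 CPM before and 2.62 and 2.62 CPM after, a change of -1.86 ± 0.21 (adjusted p = 8.38e-06). Thymic cells had 6.99 and 6.21 CPM before and 13.5 and 15.2 CPM after, a change of 1.12 ± 0.15 (adjusted p = 1.12e-05). The fall in trachea, from 0.500 and 0.765 to 0.188 and 0.146 CPM (log2 change -1.79 ± 0.55, adjusted p = 0.0161), rested on 4 reads in each recovered sample and was lost (adjusted p = 0.0962, 0.0543 and 0.117) without sample 2 before transplantation or without either recovered sample.

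Bmp2, a close relative of Bmp4, rose in vaginal cells, where it was at 2.33 and 2.97 CPM before and 10.6 and 11.5 CPM after (log2 change 2.07 ± 0.20, adjusted p = 5.38e-07), with no overlap between rounds. In the other tissues it was not called, and bladder cells (13.6 and 15.2 before and 18.8 and 20.6 CPM after) and whisker cells (15.4 and 12.8 before and 10.9 and 13.4 CPM after) held higher levels than tracheal and thymic cells (1.15 to 3.58 CPM) in both rounds.

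Bmp8b fell in trachea, vagina, thymus and whisker. Tracheal cells had 71.1 and 72.7 CPM before and 22.4 and 23.7 CPM after, and vaginal cells had 33.3 and 40.2 CPM before and 4.52 and 4.35 CPM after. Thymic cells were at 49.7 and 44.2 CPM before and 9.81 and 10.9 CPM after, and whisker cells at 8.61 and 6.75 CPM before and 2.12 and 2.25 CPM after. The rounds did not overlap in any of the 4. The log2 changes were -1.64 ± 0.098 in trachea (adjusted p = 2.75e-09), -3.04 ± 0.15 in vagina (adjusted p = 2.99e-10), -2.17 ± 0.12 in thymus (adjusted p = 3.90e-10) and -1.80 ± 0.22 in whisker (adjusted p = 2.26e-05). Bladder cells, at 39.3 and 36.4 CPM before and 31.3 and 31.6 CPM after, changed by -0.27 and were not called. Its paralog Bmp8a was at or under 1.00 CPM in every sample (0 to 26 reads) and was called lower in trachea, vagina and thymus (log2 change -1.22, -1.26 and -2.42). In vagina that call was lost without any 1 of the 4 samples (log2 change -1.39 to -1.11, adjusted p 0.0734 to 0.17), in trachea without either recovered sample (-1.54 and -0.86, adjusted p = 0.0512 and 0.247), and in thymus without sample 2 before transplantation or sample 1 after it (-2.06 and -1.86, adjusted p = 0.0779 and 0.123). In thymus the call rests on 8 reads before and 1 read after, a ratio of 8.73 with an exact 95% counting interval of 1.17 to 387. Reads that aligned to several places were not counted, and how many reads the paralogs Bmp8a and Bmp8b share was not measured, so the values of both are uncertain.

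Inhba encodes the beta A subunit of activin A, and it fell in bladder and tracheal cells. It was at 20.8 and 26.5 CPM before and 2.00 and 1.12 CPM after in bladder and at 20.3 and 20.3 CPM before and 2.25 and 2.59 CPM after in trachea, without overlap. The log2 changes were -3.96 ± 0.36 (adjusted p = 9.47e-08) and -3.05 ± 0.29 (adjusted p = 5.46e-07). Vaginal cells (1.45 and 1.20 before, 0.670 and 0.661 CPM after) and thymic cells (2.58 and 6.17 before, 2.89 and 2.87 CPM after) were not called, and whisker cells stayed at 0.281 to 0.368 CPM in both rounds.

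Fstl1, a secreted glycoprotein of the follistatin-like group that can bind BMPs, was called in all 5 tissues, with thymus against the rest. Thymic cells had 4.68 and 4.27 CPM before and 26.9 and 27.9 CPM after, a log2 change of 2.61 ± 0.21 (adjusted p = 5.90e-08). Tracheal cells had 37.5 and 41.9 CPM before and 3.24 and 2.44 CPM after, a change of -3.83 ± 0.25 (adjusted p = 7.86e-09). In bladder it was at 22.1 and 17.5 CPM before and 5.52 and 3.96 CPM after, and in vagina at 13.5 and 11.6 CPM before and 2.14 and 4.14 CPM after. Whisker cells, highest in both rounds, had 124 and 115 CPM before and 41.1 and 36.0 CPM after. The changes were -2.09 ± 0.22 in bladder (adjusted p = 7.01e-07), -2.03 ± 0.25 in vagina (adjusted p = 9.92e-06) and -1.63 ± 0.12 in whisker (adjusted p = 1.10e-07). Of 13 fibroblast markers, 10 were called lower and 2 higher in bladder, 9 lower in trachea, 7 higher in thymus, 0 in vagina and 2 lower in whisker. Col1a1, a defining gene of fibroblasts, was at 176 and 127 CPM before and 17.8 and 15.5 CPM after in bladder, at 151 and 154 CPM and then 25.8 and 25.9 CPM in trachea, and at 13.5 and 14.4 CPM and then 19.1 and 21.3 CPM in thymus. The sum over the 13 markers was 661 and 541 CPM before and 334 and 332 CPM after in bladder, 852 and 903 CPM before and 561 and 561 CPM after in trachea, 533 and 524 CPM before and 749 and 771 CPM after in vagina, 495 and 580.4 CPM before and 649 and 677 CPM after in thymus and 1391 and 1404 CPM before and 488 and 516 CPM after in whisker, and no defining marker among Col1a1, Col3a1, Dcn and Bgn was at 0. These markers moved with Fstl1 in bladder, trachea and thymus, and with Inhba and Dkk3 in bladder and trachea. In whisker their sum fell with Fstl1, but only Aebp1 and Col5a2 were called lower (log2 change -2.43 and -1.75). There Col1a1, Col3a1, Dcn and Bgn changed by -0.07 to 0.10. In vagina the sum rose while Fstl1 fell, with 0 of the 13 markers called. The median log2 change of the 13 was -0.004 in whisker and -0.15 in vagina, so the sums do not describe most of the list. In thymus 7 markers rose while Dkk3 fell. The part of the fibroblast markers in these results was not tested. In the direction of Fstl1, 3 of 6 immune markers were called in bladder, 3 in trachea, 2 in vagina, 2 in thymus and 0 in whisker. Lcp1 was among them in bladder, trachea and thymus (log2 change -3.59, -2.22 and 1.36). In the other direction were Cd68 in bladder and trachea (1.94 and 2.32), Cd74 in vagina (1.75) and Coro1a in thymus (-2.045). Of 4 endothelial markers 3 were called lower in bladder, 1 higher and 1 lower in trachea, 2 lower in vagina and 0 in thymus and whisker. Their sum was 0.737 to 11.6 CPM over the 20 samples. The part of both lists was not tested either. In such bulk samples fewer cells of a type and less RNA per cell cannot be told apart.

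Bmpr1b, a type I BMP receptor, fell in trachea and vagina. Tracheal cells had 4.77 and 4.75 CPM before and 1.69 and 1.90 CPM after, a log2 change of -1.39 ± 0.31 (adjusted p = 0.00206). Vaginal cells had 1.57 and 1.95 CPM before and 0.168 and 0.0348 CPM after, where 5 reads remained in the recovered samples, a change of -4.19 ± 0.72 (adjusted p = 2.21e-04). Thymic cells kept the highest level, with 10.2 and 15.6 CPM before and 7.81 and 8.85 CPM after, and were not called. In bladder the gene was called higher on 3 reads before and 15 after, a ratio of 5.65 with an exact 95% counting interval of 1.60 to 30.4. That call was lost (adjusted p = 0.226, 0.0927 and 0.212) without either bladder sample before transplantation or without recovered sample 1.

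Tgfbi, a TGF-beta-induced matrix protein, rose in bladder and trachea. It was at 8.51 and 15.8 CPM before and 66.6 and 72.2 CPM after in bladder (log2 change 2.60 ± 0.20, adjusted p = 1.63e-08) and at 32.3 and 29.5 CPM before and 69.7 and 67.4 CPM after in trachea (change 1.15 ± 0.17, adjusted p = 5.07e-05). Thymic cells rose by less than 2-fold, from 89.8 to 98.3 CPM before to 145.7 to 146.5 CPM after. Vaginal cells were at 121 to 172 CPM before and 148 to 155 CPM after. Whisker cells held 386 to 407 CPM in both rounds, above every other sample. Bmp1, a procollagen C-proteinase and not a BMP ligand, was between 134 and 471 CPM in the 20 samples, and its log2 changes lay between -0.51 in whisker and 0.31 in thymus. Of 7 other BMP and activin pathway genes (Acvr1b, Acvr2b, Bambi, Chrd, Crim1, Eng and Gdf15), 2 were higher in bladder, 1 each in trachea and vagina, 0 in thymus, and 2 were higher and 1 lower in whisker.

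Of the 4 ectodysplasin pathway members, 3 were called higher in bladder cells, 2 in thymic cells and 1 in whisker cells. The shares called higher there were 10.1%, 8.49% and 2.15% of all genes and 20.6%, 19.2% and 5.60% of the other paired genes. In vaginal cells 1 was called lower, beside 7.53% of all genes and 17.7% of the other paired genes. The receptor gene Edar was at 1.08 and 0.560 CPM before and 4.71 and 3.62 CPM after in bladder and at 1.71 and 1.41 CPM before and 4.42 and 3.37 CPM after in thymus, and no recovered sample there overlapped an earlier one. The log2 changes were 2.34 ± 0.33 (adjusted p = 1.27e-05) and 1.28 ± 0.27 (adjusted p = 8.99e-04). In vagina it fell, from 1.72 and 1.86 to 0.419 and 0.592 CPM (log2 change -1.79 ± 0.39, adjusted p = 0.00172). Tracheal cells, with 0.154 and 0.282 CPM before and 0.563 and 0.365 CPM after, and whisker cells, with 0.790 and 0.797 CPM before and 1.06 and 0.655 CPM after, were not called.

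Edaradd, the adaptor of Edar, was at 10.2 and 10.5 CPM before and 49.5 and 51.2 CPM after in bladder (log2 change 2.28 ± 0.16, adjusted p = 5.31e-09). In thymus it was at 21.6 and 34.2 CPM before and 57.7 and 57.5 CPM after (change 1.09 ± 0.13, adjusted p = 4.99e-06), but without the lower earlier sample, sample 1, the change was 0.74, under 2-fold. Tracheal cells went from 27.3 and 30.5 to 50.5 and 48.9 CPM and whisker cells from 36.0 and 34.0 to 53.5 and 49.0 CPM, both under 2-fold, and vaginal cells stayed at 53.8 to 56.7 CPM in both rounds. The 4 non-hair tissues spanned 2.42 on the log2 scale before transplantation (moderated F adjusted p = 9.91e-09) and 0.21 after it (adjusted p = 0.304), and the 10 recovered samples lay between 48.9 and 57.7 CPM.

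The ligand gene Eda behaved alike in that its spread among the 4 non-hair tissues was 2.40 before (adjusted p = 3.50e-07) and 0.48 after (adjusted p = 0.0761). It rose in bladder, with 2.84 and 2.50 CPM before and 8.24 and 8.18 CPM after (log2 change 1.61 ± 0.23, adjusted p = 1.47e-05), and in whisker, with 4.70 and 3.37 CPM before and 11.4 and 11.8 CPM after (change 1.52 ± 0.20, adjusted p = 3.36e-05). Vaginal cells, highest before transplantation, had 16.0 and 12.4 CPM before and 9.80 and 10.6 CPM after and were not called. Tracheal cells rose by less than 2-fold, from 4.96 and 4.95 to 8.83 and 9.08 CPM. Thymic cells had 5.40 and 6.75 CPM before and 6.20 and 8.42 CPM after. Eda2r, a receptor for the other splice form of ectodysplasin and a p53 target, was between 4.37 and 23.0 CPM and was called in none. Its 2 earlier thymic samples, 4.37 and 12.8 CPM, lay on both sides of the recovered ones (8.15 and 10.2 CPM).

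Wnt3, a canonical Wnt ligand, was low throughout: at most 0.459 CPM in the non-hair tissues (0 to 12 reads) and 1.29 and 0.984 CPM in whisker before transplantation. It was called higher in bladder on 3 reads before and 11 after, a ratio of 4.14 with an exact 95% counting interval of 1.09 to 23.1. In thymus the call rests on 2 reads before and 9 after, a ratio of 4.12 with an interval of 0.854 to 39.2 that includes no change. It fell in whisker by a log2 change of -1.36 ± 0.40 (adjusted p = 0.0208), to 0.506 and 0.368 CPM. These calls were lost without any 1 of the bladder samples (adjusted p 0.0626 to 0.126), without sample 1 of either thymic group (adjusted p = 0.416 and 0.129) and without either recovered whisker sample (adjusted p = 0.0607 and 0.148).

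Wnt4, a ligand with canonical and noncanonical activity, was between 51.6 and 295 CPM and was called after transplantation in none of the 5 tissues. Tracheal cells came nearest to a fall, with 288 and 295 CPM before and 178 and 190.3 CPM after (log2 change -0.66 ± 0.13, under 2-fold). Across the 4 non-hair tissues its range was 1.17 on the log2 scale before transplantation (moderated F adjusted p = 1.30e-06) and 0.48 after (adjusted p = 0.00704, under 2-fold).

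Dkk3, a secreted protein of the Dickkopf family, fell in trachea, bladder and thymus. Tracheal cells had 4.46 and 5.31 CPM before and 0.516 and 0.328 CPM after, a log2 change of -3.52 ± 0.53 (adjusted p = 6.91e-05). Bladder cells had 6.72 and 3.15 CPM before and 1.62 and 2.11 CPM after (change -1.33 ± 0.36, adjusted p = 0.00446) and thymic cells 2.58 and 2.73 CPM before and 0.977 and 0.924 CPM after (change -1.47 ± 0.44, adjusted p = 0.0114). Without sample 1 of the bladder before transplantation, the higher of its pair, the change was -0.75 (adjusted p = 0.0555), and without recovered sample 2 of the thymus it was -1.45 (adjusted p = 0.0772). Whisker cells held 0 to 2 reads of Dkk3 in each sample, at or under the floor in both rounds.

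Lgr4, a receptor for R-spondins, was called lower in whisker cells alone among the 5 tissues, where it was at 153 and 179 CPM before and 47.2 and 53.4 CPM after (log2 change -1.72 ± 0.12, adjusted p = 6.23e-08). The non-hair tissues lay between 18.1 and 32.9 CPM in both rounds, under the recovered whisker samples. Of 17 other Wnt pathway genes, 2 were higher and 4 lower in bladder, 1 and 2 in trachea, 1 and 2 in thymus, and 0 were called in vagina or whisker. In bladder 20.6% of the other paired genes were higher and 22.4% lower. Those called in 1 direction in at least 2 non-hair tissues were Apcdd1, a membrane-bound Wnt inhibitor (log2 change -4.16 in bladder and -2.51 in trachea), Ror2, a receptor for noncanonical Wnt ligands (-1.54 and -1.97), and the planar polarity cadherins Celsr3, lower in bladder and thymus (-1.61 and -4.07), and Celsr2, higher in both (1.89 and 1.48).

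Dll1, a Notch ligand, rose in bladder cells, from 3.14 and 6.38 to 36.9 and 36.0 CPM (log2 change 3.05 ± 0.19, adjusted p = 1.11e-09). Bladder cells had been the lowest of the 5 tissues before transplantation, and after it they lay just above tracheal cells (30.8 and 32.7 CPM). Thymic cells, at 100.4 and 109 CPM before and 91.9 and 95.6 CPM after, and vaginal cells, at 42.6 and 43.7 CPM before and 47.1 and 50.2 CPM after, were not called. Whisker cells rose from 54.8 and 60.3 to 88.4 and 88.8 CPM, and tracheal cells from 22.0 and 22.9 CPM, both by less than 2-fold. Of 9 other Notch pathway genes, 2 were higher and 1 lower in bladder, 0 and 1 in trachea, and 1 and 1 in each of vagina, thymus and whisker. By the same rule Dlk1, a non-canonical ligand, was lower in bladder and trachea (-2.91 and -1.67 on the log2 scale) but higher in thymus (2.86), and Numbl, a Numb-like adaptor, was higher in bladder and vagina (1.23 and 1.14).

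Ereg and Areg, epiregulin and amphiregulin, are ligands of the EGF receptor. Ereg rose in bladder, with 16.9 and 13.4 CPM before and 141 and 143 CPM after (log2 change 3.23 ± 0.14, adjusted p = 1.37e-11), and in whisker, with 6.03 and 5.01 CPM before and 30.3 and 27.6 CPM after (change 2.38 ± 0.20, adjusted p = 2.84e-07). It fell in thymus, with 55.8 and 76.4 CPM before and 32.3 and 31.7 CPM after (change -1.03 ± 0.12, adjusted p = 3.79e-06), but by only 0.80, under 2-fold, without sample 2 before transplantation. After transplantation the tracheal, vaginal, thymic and whisker samples lay between 27.6 and 33.3 CPM and the bladder samples at 141 and 143 CPM. Areg was called in whisker alone among the 5 tissues, with 18.7 and 16.4 CPM before and 56.8 and 57.8 CPM after (change 1.70 ± 0.27, adjusted p = 2.43e-04), and all non-hair samples (78.1 to 327 CPM) lay above these. Of 5 other EGF-family and feedback genes, Btc, betacellulin, was lower in bladder, trachea and vagina (-2.23, -1.29 and -1.87), and Epgn, epigen, was higher in bladder and trachea (2.06 and 1.87) and lower in thymus (-1.05). Over that list 1 was higher and 1 lower in bladder, trachea and thymus each, 0 and 1 in vagina, and 1 and 0 in whisker.

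Pdgfc, a PDGF ligand, fell in vaginal cells, with 35.3 and 27.5 CPM before and 9.80 and 8.14 CPM after (log2 change -1.82 ± 0.15, adjusted p = 1.03e-07). Tracheal cells went from 25.2 and 23.7 to 13.2 and 13.1 CPM, under 2-fold. Egfl7, a secreted factor best known from vascular cells, fell in thymus, with 5.48 and 5.05 CPM before and 1.87 and 1.68 CPM after (change -1.57 ± 0.25, adjusted p = 7.97e-05). The 4 endothelial markers were low in thymus, with a sum of 3.14 and 2.86 CPM before and 2.17 and 2.77 CPM after. Over both samples, 2 of them had at most 3 reads before and 1 after. In thymus 0 of the 4 were called, and their part in the fall of Egfl7 was not tested. Egfl8, the paralog of Egfl7, was between 1.81 and 5.86 CPM and was called in none. For FGF signalling, which has no member here, 7 genes of the ERK response (Dusp4, Dusp5, Dusp6, Egr1, Etv1, Etv4 and Etv5) gave 2 higher and 2 lower in bladder, 0 and 2 in trachea, 0 in vagina, 3 and 1 in thymus and 2 and 0 in whisker. Dusp4, a MAP kinase phosphatase, was lower in bladder and trachea (-2.48 and -1.29) and higher in thymus (2.74), and the factor Etv5 was lower in bladder and trachea (-2.36 and -1.09).

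Among the 4 non-hair tissues 20 of the 27 members differed before transplantation (moderated F, adjusted p under 0.05 and a range of at least 2-fold; 40.3% of all genes and 74.7% of the other paired genes) and 19 after it (35.6% and 65.1%), shares near those of the other paired genes. The widest ranges after transplantation were in Bmpr1b (6.45 on the log2 scale) and Bmp4 (6.28). The change itself differed among these 4 tissues for 19 members (41.8% of all genes and 70.8% of the other paired genes), by the test added after the values were seen, at 70.4% almost the same share as among the paired genes.

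The study set trachea apart from the other tissues, and the change there was tested against each of the other 3. Against bladder, 0 members changed more upward in trachea and 12 more downward (4.91% and 7.67% of all genes). Against vagina the counts were 6 and 4 (9.09% and 8.15%), and against thymus 1 and 5 (7.34% and 10.2%). Over the other paired genes the shares were 10.2% and 16.6% against bladder, 19% and 13.9% against vagina and 13.5% and 21.2% against thymus. The members called more downward than in bladder (44.4%) were above that share, those against vagina (22.2% and 14.8%) were near it and those against thymus (3.70% and 18.5%) were below it. The changes of Fstl1 and Dkk3 in trachea lay below those in each of the other 3 tissues, and that of Bmp6, which rose in bladder and thymus, lay below both of these. Suprabasal markers rose beside these genes: 5 of 5 were higher in bladder, 4 each in vagina and thymus and 3 in trachea, while 1 was lower in whisker. Their sum went from 6.20 and 10.6 CPM to 441 and 404 CPM in bladder and from 12.2 and 12.2 CPM to 38.1 and 31.8 CPM in trachea. In thymus it went from 20.4 and 13.9 to 49.9 and 46.0 CPM and in vagina from 97.9 and 122 to 456 and 469 CPM. In whisker it fell, from 2496 and 2051 to 1138 and 1233 CPM. The sums thus differed between rounds, upward in the non-hair tissues and downward in whisker. The part of these markers in the results was not tested.

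Differences from whisker cells of the same round are given as a description only, since the gene names come from lists of genes called against whisker cells. Before transplantation the median absolute log2 difference of the 27 members from whisker was 2.29 for bladder, 2.42 for trachea, 1.82 for vagina and 2.11 for thymus cells, and after it 1.28, 1.16, 0.86 and 1.41. After transplantation 19 (bladder), 20 (trachea), 22 (vagina) and 19 (thymus) of the 27 were nearer to whisker (70.4%, 74.1%, 81.5% and 70.4%), beside 70.3%, 67.6%, 66.6% and 64.5% of the other paired genes. Over all genes tested the shares nearer to whisker were 63.1%, 62.5%, 57.8% and 56.3%, so most genes moved this way and not the members alone. The whisker cells moved too, and Lgr4, which fell in whisker, lay nearer in all 4 tissues. Bmp6 passed from below whisker to above it in bladder (-2.23 before and 2.83 after) and thymus (-1.69 before and 2.89 after), on the log2 scale. Bmp3 moved away from whisker in bladder (1.62 before and 2.79 after), trachea (0.95 before and 2.24 after) and thymus (0.32 before and 1.88 after). Gli1 moved nearer in each but stayed below it, with log2 differences of -4.33 in bladder, -4.23 in thymus, -3.15 in trachea and -1.90 in vagina.

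**Figure D4:**
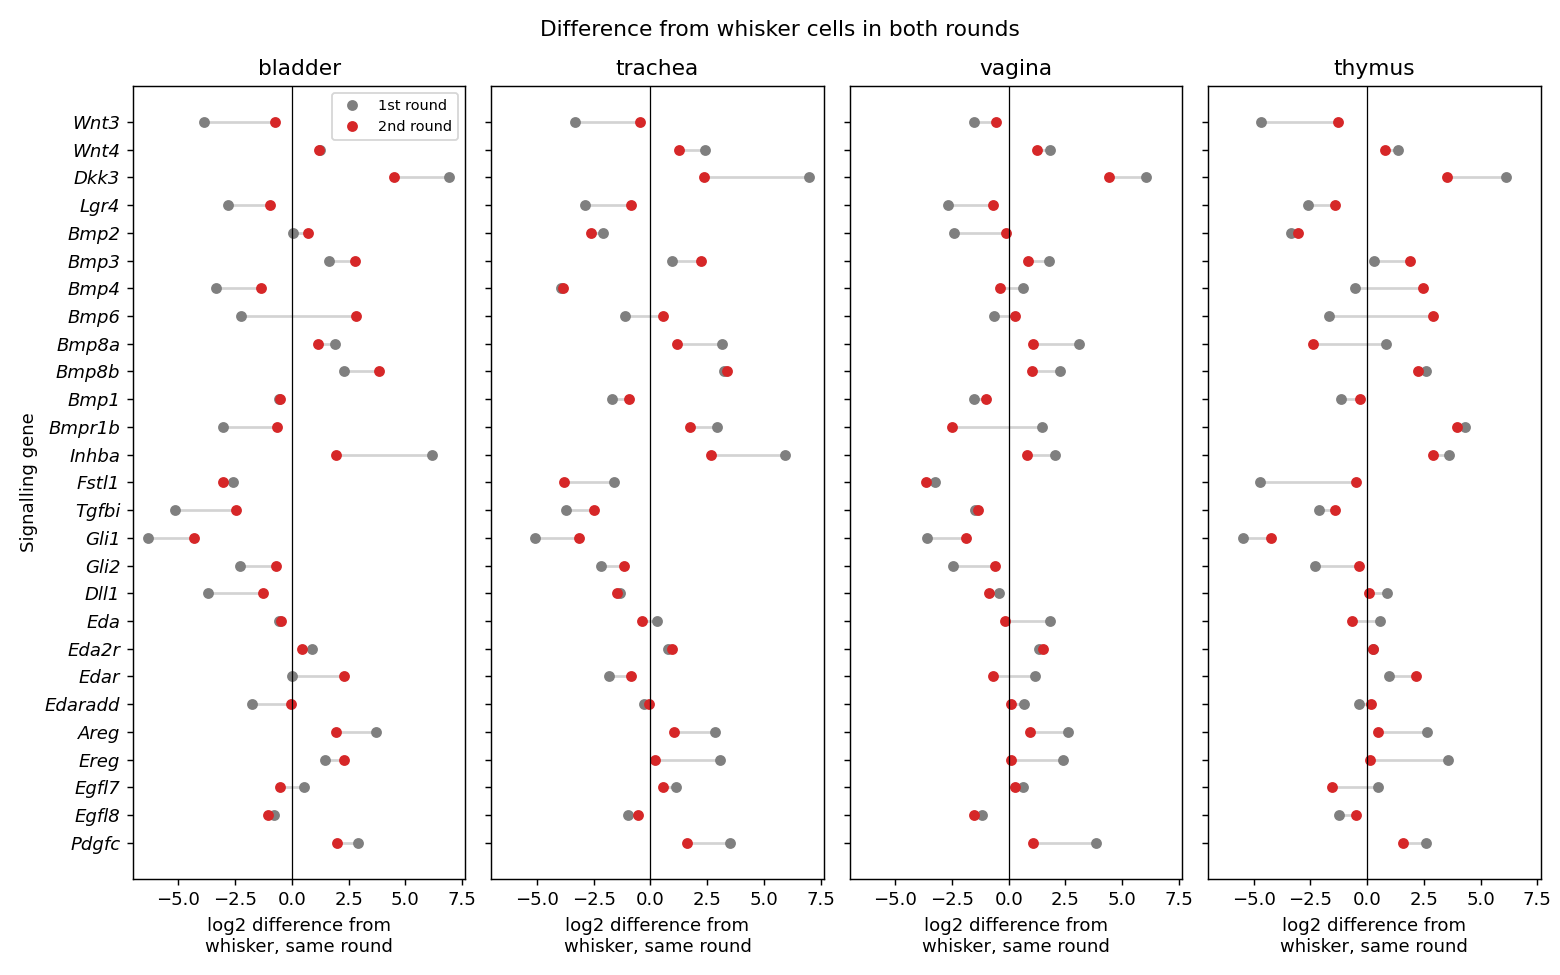
Log2 difference from whisker cells of the same round (x axis) for the 27 signalling genes (y axis) in 4 non-hair tissues, in the 1st round (grey) and the 2nd round (red), joined by a line. Most genes lie nearer to 0 in the 2nd round (19 to 22 of 27), while Bmp3 moves away from 0 in bladder, trachea and thymus. Nearer to 0 were also 64.5% to 70.3% of the other paired genes and 56.3% to 63.1% of all genes tested.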

How the data were processed

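RNA from 20 samples was sequenced from stranded mRNA libraries. Per the labels and the study's methods, the authors trimmed reads with cutadapt 1.8, aligned them to Rnor 6.0 with STAR 2.5.2b and deposited raw counts per Ensembl gene from HTSeq 0.6.1, without reads that aligned to several places. The 5 summary rows of each file, which name no gene and hold 41.6% to 46.4% of the counts, were left out of library sizes and tests.

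Genes that reached 1 CPM in any 1 sample were kept and scaled to CPM by TMM (edgeR 4.0.16). The main test was voom in limma 3.58.1 (R 4.3.3), with 1 mean for each of 10 groups and 10 residual degrees of freedom, and adjusted by Benjamini-Hochberg over all 13302 genes. The moderated F test of the change among tissues was added after the values were seen. Alternatives used edgeR's quasi-likelihood test, DESeq2 1.42.0 (Wald test, and a likelihood ratio test in place of the F test), other scaling, filters and fold thresholds, a replicate block, fewer samples and each library left out. The procedure was tested on simulated data. Members, pathway lists and markers were chosen with earlier results of these data known. All members are named. Values per sample are given for calls whose higher group reached 1 CPM in each sample, and only for part of the tissues where a member was not called. Genes of other lists are named if called in 1 direction in at least 2 non-hair tissues. Counting intervals cover counting error only.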

Additional observations from a re-analysis of the deposited data

Results flagged for a closer look

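The change after transplantation differed between trachea and at least 1 other tissue for 17 signalling genes, by the interaction contrast of the same limma voom fit (at least 2-fold, 28 gene and tissue pairs). The share of all genes that differed in at least 1 of these contrasts was not computed, so the count of 17 is not read as a result about signalling genes. Shares for each single contrast are given above. Values are the log2 change in trachea minus that in the other tissue, with the SE, so a negative value means that the gene moved less upward or more downward in trachea.

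Against bladder, 12 genes were lower in this sense: Bmp2 -1.23 ± 0.28 (adjusted p = 0.00317), Bmp4 -1.90 ± 0.67 (adjusted p = 0.041), Bmp6 -3.38 ± 0.31 (adjusted p = 5.56e-07), Bmp8b -1.37 ± 0.14 (adjusted p = 1.90e-06), Bmpr1b -3.54 ± 0.93 (adjusted p = 0.00832), Dkk3 -2.19 ± 0.64 (adjusted p = 0.0162), Dll1 -2.55 ± 0.23 (adjusted p = 4.49e-07), Edaradd -1.50 ± 0.21 (adjusted p = 4.39e-05), Ereg -3.71 ± 0.18 (adjusted p = 1.05e-09), Fstl1 -1.74 ± 0.34 (adjusted p = 8.96e-04), Tgfbi -1.45 ± 0.26 (adjusted p = 5.38e-04) and Wnt4 -1.10 ± 0.18 (adjusted p = 2.16e-04). In 5 of these the bladder cells had risen by over 2-fold and tracheal cells had not changed past the threshold (Bmp6, Dll1, Edaradd, Ereg) or had fallen (Bmpr1b).

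Against vagina, 6 genes were above 0 and 4 below: Bmp2 -2.85 ± 0.32 (adjusted p = 3.99e-06), Bmp3 2.24 ± 0.15 (adjusted p = 8.73e-09), Bmp8b 1.40 ± 0.18 (adjusted p = 1.51e-05), Bmpr1b 2.80 ± 0.78 (adjusted p = 0.00896), Dkk3 -3.00 ± 0.66 (adjusted p = 0.00167), Eda 1.33 ± 0.23 (adjusted p = 2.88e-04), Edar 2.82 ± 0.68 (adjusted p = 0.00323), Fstl1 -1.80 ± 0.36 (adjusted p = 7.65e-04), Inhba -2.07 ± 0.62 (adjusted p = 0.0136) and Tgfbi 1.08 ± 0.22 (adjusted p = 0.00108). Bmp3 rose in trachea and not in vagina, and Bmp2 rose in vagina and not in trachea.

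Against thymus, 1 gene was above 0 and 5 below: Bmp4 -2.91 ± 0.57 (adjusted p = 7.22e-04), Bmp6 -2.89 ± 0.29 (adjusted p = 8.50e-07), Dkk3 -2.05 ± 0.69 (adjusted p = 0.0254), Egfl7 1.50 ± 0.30 (adjusted p = 7.68e-04), Fstl1 -6.44 ± 0.33 (adjusted p = 4.98e-10) and Inhba -2.59 ± 0.43 (adjusted p = 1.71e-04). Fstl1 fell in trachea and rose in thymus, while 9 of 13 fibroblast markers were lower in trachea and 7 higher in thymus, and their part in the difference was not tested. Leaving out 1 library at a time, 19 of the 28 differences kept their call under every omission. The other 9 lost it under at least 1: Bmp4, Bmpr1b, Dkk3, Tgfbi and Wnt4 against bladder, Bmpr1b, Inhba and Tgfbi against vagina, and Dkk3 against thymus. Each group holds 2 samples, too few to look for single outlying samples.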

How the results depend on the processing

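With a log2 change of at least 2 in place of 1, the members called after transplantation went from 10 to 4 in trachea, from 13 to 6 in thymus and from 9 to 1 in whisker, and the differences of trachea from bladder from 12 to 5 and from vagina from 10 to 6. Under that stricter fold the other counts stayed within 1.5 times, as did all 11 counts under edgeR's quasi-likelihood test, DESeq2, DESeq2 size factors, no filter on low counts, a stricter filter, a fit of only the groups compared and the replicate number as a block. Leaving out 1 library at a time, the members called were 11 to 13 in bladder, 8 to 9 in trachea, 8 to 9 in vagina, 10 to 14 in thymus and 8 to 10 in whisker, with trachea against bladder 8 to 14, vagina 8 to 12 and thymus 5 to 8, among tissues 20 to 22 before and 17 to 20 after, and 18 to 21 for the change among tissues. Of 55 calls of members after transplantation, 42 kept their call under every such omission, and the 13 that lost it under at least 1 were of Wnt3 (bladder, thymus, whisker), Bmp8a (trachea, vagina, thymus), Dkk3 (bladder, thymus), Bmpr1b (bladder), Bmp4 (trachea), Edaradd, Ereg and Gli1 (thymus). 0 called values changed sign under any alternative.

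The replicate numbers did not pair the samples: deviations of the same number correlated by 0.014 to 0.088 within a tissue. With the replicate number as a replicate block, the members called were 14 in bladder, 11 in trachea, 9 in vagina, 13 in thymus and 9 in whisker, 12, 10 and 6 for trachea against bladder, vagina and thymus, 20 and 19 among tissues, and 20 for the change among tissues. Without the filter the median of all genes moved by up to 0.133 on the log2 scale, and DESeq2 size factors changed CPM values by a factor of 0.980 to 1.018. Depth limits Wnt3, Bmp8a and low groups of Gli1, Bmpr1b and Bmp4, which rest on few reads.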
